A study of Bos taurus with 10 samples.

Results

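Nucleated blood cells were compared with 9 other bovine tissues at 51227 CG sites on the 29 autosomes that carried at least 8 reads in all 10 libraries. Sites were matched by chromosome, position and strand, and they made up 11.3 % of the 452664 autosomal CG sites covered in at least 1 tissue. They belonged to 38315 CG dinucleotides, of which 12912 were covered on both strands. Each tissue was measured in 1 library by reduced representation bisulphite sequencing (RRBS), in which DNA is cut at CCGG by the enzyme MspI and bisulfite turns unmethylated cytosines into a base read as thymine. The methylation level of a site is the share of its reads that kept the cytosine.

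The libraries came from a Hereford cow and its relatives. Adult tissues were the nucleated blood cells, skeletal muscle taken near a caesarean cut, whole testes, intercaruncular uterus and the mammary gland at 90 d of lactation. Juvenile tissues were ileum, abomasum, frontal cortex and mammary parenchyma, and a fetus gave the rumen. Testes and rumen were male and the other tissues female. No agent or genetic change was applied in any group. With 1 library per tissue, the tissue, the animal and the age cannot be told apart. A level is an average over all cells of a sample, so a change in every cell and a change in the share of a cell type cannot be told apart either. The label of the blood library could not be checked against leukocyte marker genes, because gene positions of the build were not used here.

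In mammals, methyl groups are placed on cytosines of CG dinucleotides, and most CGs outside CG islands carry them while islands at gene starts are mostly free of them. Maintenance enzymes copy the pattern at each cell division, so that cells of a lineage tend to share it. Blood cells are a textbook case, since leukocytes descend from haematopoietic stem cells through stepwise commitment that leaves lineage marks in methylation. They also travel through and reside in other organs, so that DNA from a solid tissue can contain blood cell DNA.

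Sites covered by RRBS lie in CG-rich stretches, and the median was 7 tested CGs within 50 bp over all sites. At the sites called below as lower and higher than every other tissue it was 8 and 5. The sequences that carried the main differences were also rich in CG. They are given on the plus strand of UMD3.1 as read from the deposited contexts of 5 bases, with 2 bases or more beside the first and last CG, and capitals mark the CGs that were tested in all 10 tissues. The 5 stretches with the largest mean gap between blood cells and the next higher tissue were runs of neighbouring CGs at chr16:70917926-70917968, chr29:44484484-44484573, chr11:101128501-101128551, chr18:62616262-62616308 and chr17:67454885-67454915, in this order.
lower run 1: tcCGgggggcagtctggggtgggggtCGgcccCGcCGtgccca
lower run 2: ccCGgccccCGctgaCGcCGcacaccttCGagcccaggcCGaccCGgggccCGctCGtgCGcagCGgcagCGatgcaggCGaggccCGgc
lower run 3: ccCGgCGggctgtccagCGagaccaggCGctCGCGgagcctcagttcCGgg
lower run 4: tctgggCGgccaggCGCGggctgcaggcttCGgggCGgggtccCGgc
lower run 5: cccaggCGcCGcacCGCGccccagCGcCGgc
Of the 5 stretches with the largest mean gap above the next lower tissue, the 3 without an unread base were at chr11:88168520-88168560, chr7:45562436-45562482 and chr5:117090640-117090673. They are shown to compare their CG spacing with that of the lower runs.
higher run 1: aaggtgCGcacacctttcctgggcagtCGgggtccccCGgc
higher run 4: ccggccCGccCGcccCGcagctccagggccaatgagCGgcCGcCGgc
higher run 5: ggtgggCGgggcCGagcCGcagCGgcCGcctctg
The GC content of these 8 sequences was between 70.7 % and 90.3 %, and it was not compared with that of the other covered sites. The genes in or near them were not analysed here.

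Depth at the common sites differed between libraries. The median was 44 reads per site in blood cells, and ranged from 32 to 50 in the others apart from abomasum, which had 12, and 94.1 % of the sites had at least 20 reads in blood cells against 19.8 % in abomasum. The sum of reads over all deposited cytosines, in which 1 read adds to every cytosine within it, was 25559357 in blood cells and between 16125651 and 40089443 in all libraries. The level of non-CG cytosines, which includes incomplete conversion, was 1.47 % in blood cells and between 1.3 % and 1.5 % in the others. Copies of a molecule made by PCR were not told apart, so counting intervals and Fisher tests cover counting error between libraries only.

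Blood cells had the highest mean methylation level of the 10 tissues over the common sites. It was 31.8 % in blood cells and 27.8 % ± 1.67 (SD, n = 9 tissues) in the others. Among these, ileum had 29.8 %, uterus 29.7 %, lactating mammary gland 28.3 %, mammary parenchyma 28.1 %, abomasum 28.1 %, skeletal muscle 28.0 %, rumen 27.3 %, frontal cortex 27.0 % and testis 24.1 %. The difference of 3.98 points had p = 0.2 (exact permutation of the tissue labels, 1 against 9, two-sided), because testis stood farther out on the lower side, and 0.1 is the smallest p this design allows. It was spread over the genome. Blood cells had the highest level on 28 of the 29 autosomes, and their difference to the mean of the others ranged from 2.20 points on chromosome 28 to 6.27 points on chromosome 4. On chromosome 28 the highest of the others had 41.7 % and blood cells 39.4 %. The order was another over all autosomal CG sites of each library, which differ between libraries. There abomasum had 37.3 %, testis 36.9 %, blood cells 35.3 % and the other 7 tissues 29.6 to 33.0 %.

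With limits of 20 and 80 %, the distribution of levels in blood cells was polarised, with fewer sites at intermediate levels than in any other tissue. Levels between 20 and 80 % were found at 11.7 % of the sites in blood cells and at 15.4 % ± 2.53 in the others, which ranged from 13.2 % in lactating mammary gland to 21.1 % in testis. Levels above 80 % were found at 25.2 % of the sites in blood cells and at 19.1 % ± 2.96 in the others, from 12.1 % in testis to 22.1 % in ileum. The gain on the high side was not matched on the low side. Levels below 20 % were found at 63.1 % of the sites in blood cells and at 65.5 % ± 0.981 in the others, from 64.2 % in uterus to 66.8 % in testis.

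**Figure D1:**
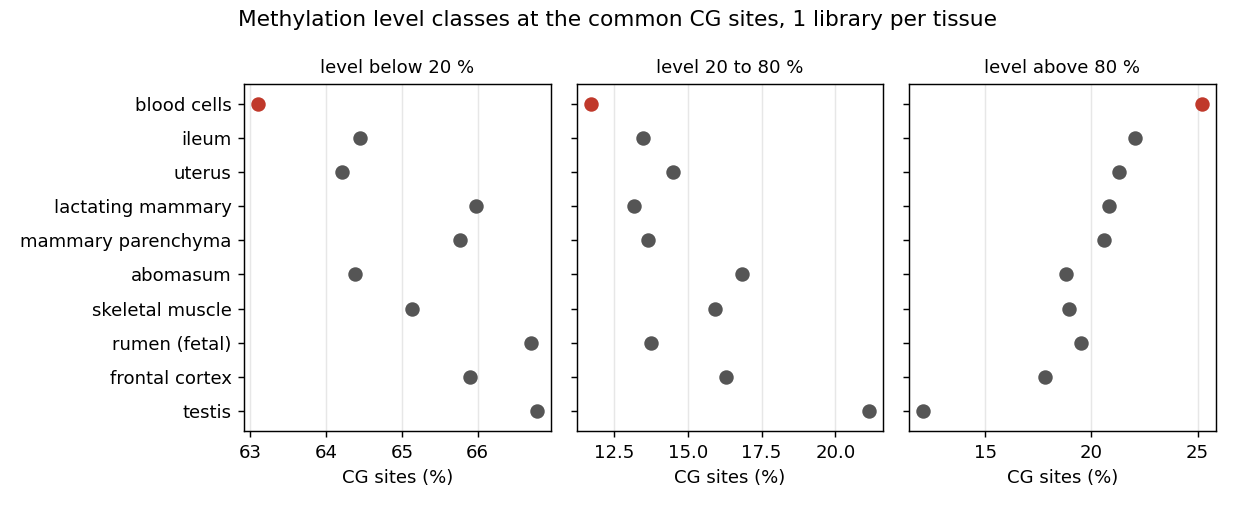
Share of the 51227 common CG sites (%) with a level below 20 %, from 20 to 80 % and above 80 % in each of the 10 tissues, 1 point per library, on axes that do not start at 0. Blood cells, in red, lie at the lower end of the first and the second panel, at 63.1 % and 11.7 %, and at the upper end of the third, at 25.2 %.

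By the same two-sided exact permutation test, the share of low sites had p = 0.1, the smallest possible, and the shares of intermediate and of high sites each had p = 0.2. Over the 9 measures compared in this way, the Benjamini-Hochberg adjusted values were 0.225 for 8 measures and 0.5 for the ninth, and with 10 libraries no measure could reach a smaller raw p than 0.1. Sites with no methylated read were fewest in blood cells, at 33.4 % against 35.0 % to 54.7 % in the others. Fully methylated sites made up 5.68 % in blood cells, 7.33 % in abomasum and between 3.17 % and 4.65 % in the remaining tissues. When levels of exactly 0 and exactly 100 % alone were counted as polarised, the difference of blood cells to the mean of the others was -8.35 points, against 3.71 points with the limits of 20 and 80 %. With limits of 10 and 90 % it was 1.49 points (exact permutation test, two-sided, p = 0.6), so blood cells did not stand out at those limits. With reads thinned at random to the lowest coverage that a site had in any tissue, 24.6 % of the sites were high in blood cells against 12.1 % to 21.6 % in the others, and 13.6 % were intermediate against 14.4 % to 21.7 %. Sites with no methylated read then made up 47.7 % in blood cells and 49.3 % to 56.1 % in the others.

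Sites that were intermediate elsewhere were often high in blood cells. At 7228 sites the median of the 9 other tissues was between 20 and 80 %, and blood cells exceeded 80 % at 2970 of them (41.1 %), stayed between 20 and 80 % at 3951 (54.7 %) and were below 20 % at 307 (4.25 %). With each other tissue in the place of blood cells, the share that moved above 80 % was between 10.2 % in testis and 23.5 % in ileum (exact permutation test, two-sided, p = 0.1, the smallest possible). The share that moved below 20 % was between 2.42 % in uterus and 14.3 % in testis, a range that included blood cells. Sites outside the intermediate class mostly kept it. Blood cells were below 20 % at 95.0 % of the 33700 sites with a low median elsewhere and above 80 % at 96.1 % of the 10299 sites with a high one.

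The size of the rise depended on the level elsewhere. Where the others had a median of 20 to 30 %, the median level in blood cells was 38.6 %, and it was 48.8 % where they had 30 to 40 % and 59.0 % where they had 40 to 50 %. In the classes from 50 to 60 %, 60 to 70 % and 70 to 80 % the medians in blood cells were 70.0 %, 76.7 % and 84.2 %. Every intermediate class was thus shifted upwards. Over all sites, blood cells exceeded the median of the others by at least 25 points at 1725 sites and fell short of it by as much at 367.

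**Figure D2:**
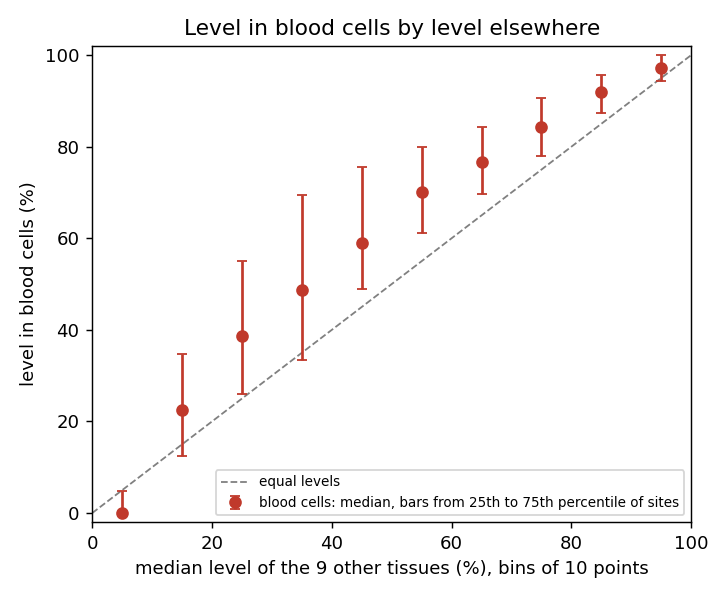
Level in blood cells (%, median as a point, 25th to 75th percentile of the sites as a bar) against the median level of the 9 other tissues (%, bins of 10 points), with a dashed line where both are equal. The medians lie above the line in all bins except the lowest, for example at 38.6 % for the bin from 20 to 30 % and at 84.2 % for the bin from 70 to 80 %.

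Blood cells were compared with each tissue in turn by Fisher's exact test on the methylated and unmethylated reads of each site. A site was called where the Benjamini-Hochberg adjusted p was below 0.01 and the levels differed by at least 25 points. Uterus and ileum were closest. Against uterus 430 sites were called, 93 lower in blood cells (0.182 % of the sites tested) and 337 higher (0.658 %). Against ileum 529 were called, 206 lower (0.402 %) and 323 higher (0.631 %). The levels in blood cells had a Pearson's r of 0.977 with those in uterus and 0.976 with those in ileum across sites, which are not independent and share the depth of the blood library. Testis was farthest, with 345 sites lower in blood cells (0.673 %), 5150 higher (10.1 %) and an r of 0.920.

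The other 6 tissues lay between. Blood cells were lower at 193 sites and higher at 637 against abomasum (0.377 and 1.24 %), where the low coverage limits the calls. They were lower at 335 and higher at 1221 sites against skeletal muscle (0.654 and 2.38 %), and lower at 222 and higher at 1463 against mammary parenchyma (0.433 and 2.86 %). Against rumen the counts were 268 and 1658 (0.523 and 3.24 %), against lactating mammary gland 411 and 1693 (0.802 and 3.30 %), and against frontal cortex 355 and 1989 (0.693 and 3.88 %). Higher calls outnumbered lower ones against each of the 9 tissues, with a share of 61.1 % against ileum and 93.7 % against testis.

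Calls in all 9 pairs in the same direction were similar in number for both directions when single sites were counted, although neighbouring sites share reads. At 45 sites blood cells were lower than every other tissue (0.0878 % of those tested), and at 42 sites they were higher (0.0820 %). These counts were much smaller than those of levels alone, since blood cells had the strictly highest level at 10152 sites (19.8 %) and the strictly lowest at 677 (1.32 %). At 67.0 % of the former the gap to the nearest tissue was under 5 points. Other tissues in the place of blood cells gave 328 lower and 14 higher sites for testis, 26 and 13 for lactating mammary gland, 4 and 10 for frontal cortex, 9 and 7 for abomasum, and at most 3 in a direction for the remaining 5. By single sites, blood cells thus had the most higher sites of the 10 libraries and were next to testis in lower ones. The second place depends on 1 stretch of 86 bp on chromosome 29, which held 25 of the 45 lower sites. These counts rest on deep coverage, and with thinned reads 0 lower sites and 1 higher site remained. The similar numbers did not hold in other settings. With the strands of a CG summed, 39 CGs were lower and 58 higher, and without ileum 47 sites were lower and 79 higher.

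**Figure D3:**
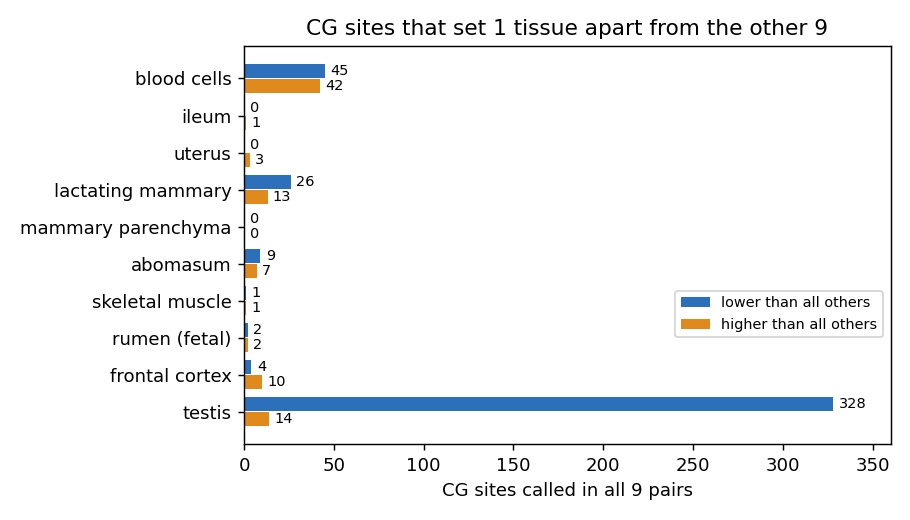
Number of CG sites called in all 9 pairs in the same direction for each tissue, with sites lower than all others in blue and higher in orange. Blood cells have 45 and 42 sites, testis 328 and 14, and 5 tissues have at most 3 in either direction.

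At the 45 lower sites blood cells were almost free of methylation. Their level ranged from 0 to 23.1 % with a median of 2.04 %, 13 sites had no methylated read, and the nearest tissue was higher by 28.6 to 61.6 points (median 44.4). Median levels of the other tissues at these sites were 54.2 % in ileum, 54.3 % in uterus and between 71.4 % and 87.5 % elsewhere. The sites formed 32 CG dinucleotides on 6 chromosomes. Chromosome 29 held 25 of them, chromosome 11 held 8, chromosome 18 held 6, and chromosomes 16, 17 and 28 held 2 each.

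At the 42 higher sites blood cells were almost fully methylated. The level ranged from 61.2 to 100 % with a median of 97.8 %, 16 sites had only methylated reads, and the gap to the nearest tissue was 25.9 to 53.9 points (median 39.5). The median was 56.7 % in ileum, 47.6 % in uterus and between 6.27 % in rumen and 38.3 % in testis in the other tissues. The sites were 36 CG dinucleotides on 11 chromosomes, with 14 on chromosome 7, 6 on chromosome 4 and 5 on chromosome 19.

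The opposite strand of the same CG gave other reads of the same libraries, which can come from the same MspI fragment. Of the 45 lower sites 34 had a tested opposite strand, which was itself a called site at 26. At the 8 that were not called, blood cells were lower than every tissue in all 8, with a mean gap of 25.4 points (11.0 to 41.3). For the 42 higher sites it was tested at 25 and was itself called at 12. At the other 13, blood cells were higher than every tissue in all 13, with a mean gap of 31.1 points (12.2 to 43.3). Strands of a CG differed by 3.45 points in blood cells at lower sites and by 3.82 points at higher sites on average, against 4.49 points over all 12912 CGs with both strands.

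Most called sites lay in runs of neighbouring CGs. A run was at least 3 neighbouring tested CGs, each at most 200 bp from the next, at which blood cells lay beyond every other tissue on each tested strand, with a mean gap to the nearest tissue of at least 20 points. Runs were chosen by these levels, so their levels are given as a description without a test. There were 15 lower runs with 126 sites and 29 higher runs with 252 sites, together 0.738 % of the sites tested. They held 43 of the 45 lower and 38 of the 42 higher called sites. These called sites lay in 6 of the lower and 14 of the higher runs, so the directions were not balanced by run. The lower runs lay on 10 chromosomes and spanned 17 to 86 bp with 3 to 14 CGs, and the higher runs lay on 13 chromosomes and spanned 9 to 99 bp with 3 to 13 CGs. A further tested CG lay within 200 bp at only 6 ends of lower runs and 8 ends of higher runs. The spans thus mostly reflect coverage and do not show how far a difference reached. With other tissues in the place of blood cells there were 190 lower runs for testis and 18 for skeletal muscle, and at most 14 higher runs, in skeletal muscle. Without ileum blood cells had 16 lower and 44 higher runs.

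Levels in the lower runs were not uniformly near 0. The mean level in blood cells ranged from 1.75 to 65.3 % (median 19.6) and was below 20 % in 8 of the 15 runs, while the others had a median of 74.0 %. In the higher runs it ranged from 40.5 to 99.0 % (median 85.9) and exceeded 80 % in 19 of the 29, while the others had a median of 27.3 %. Non-CG cytosines in the runs and up to 10 bp beside them were averaged by run. For lower runs the means were 0.583 % in blood cells and 0.983 % in the others. For higher runs they were 1.21 % and 0.812 %. These means include CHH cytosines that were high in every tissue. The one in higher run 27 on chromosome 7 had 97.4 % in blood cells and 70.0 to 100 % elsewhere. That run had 7.90 % in blood cells and 7.26 % in the others. Of the lower runs 60.0 % lay in the last 10 % of their chromosome, measured up to its last tested CG site. The share was 20.7 % for the higher runs and 28.2 % for all sites. The difference was not tested, since runs differ in their number of sites.

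**Figure D4:**
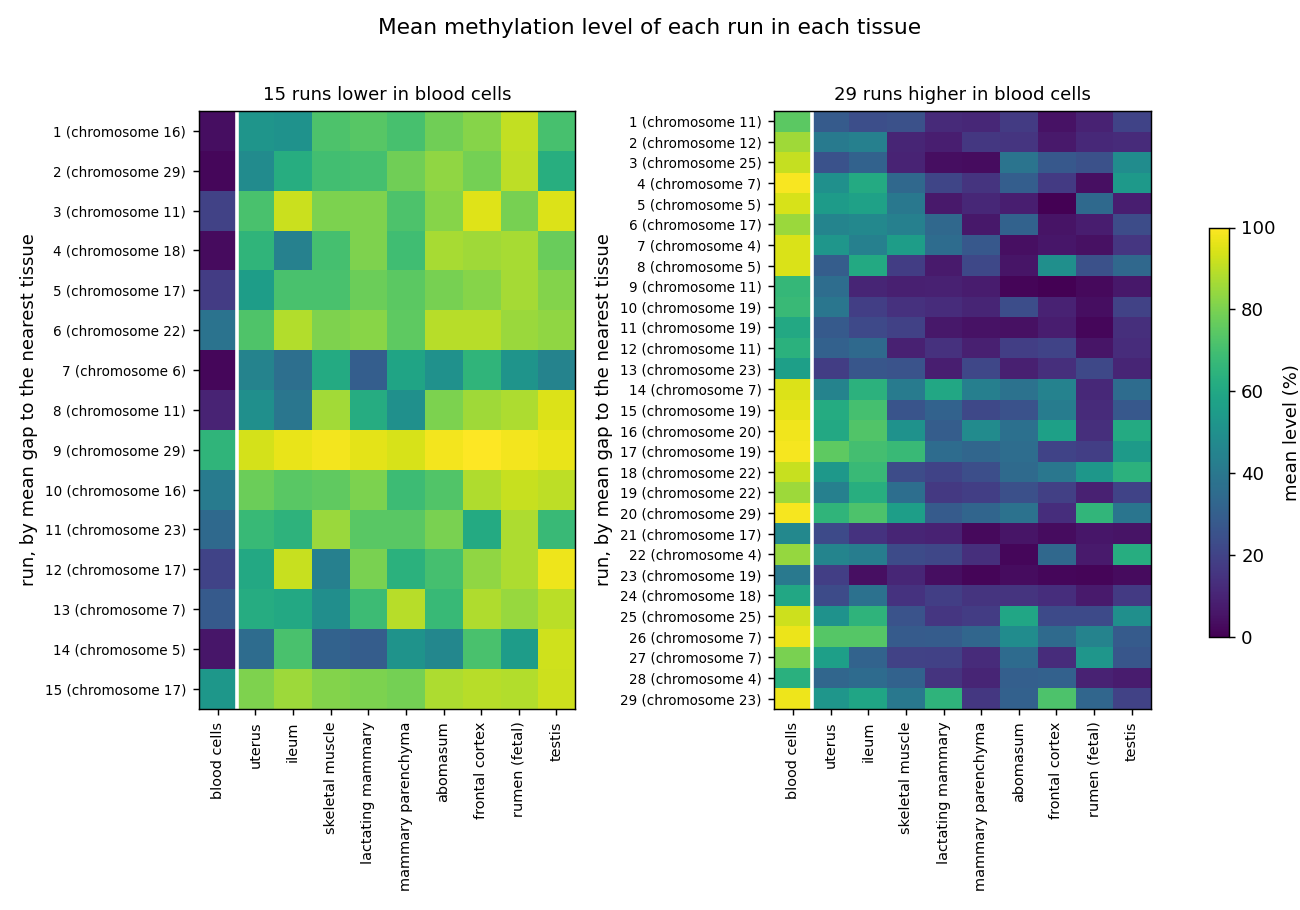
Mean methylation level (%, colour) of each of the 15 lower and 29 higher runs in the 10 tissues, with runs ordered by their mean gap to the nearest tissue. Blood cells form the leftmost column of each panel, dark at lower runs (median 19.6 %) and bright at higher runs (median 85.9 %), and uterus and ileum are the tissues most often nearest to it.

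The run with the most called sites was lower run 2 on chromosome 29. All 25 sites of its 14 CGs between 44484486 and 44484571 bp were called lower in blood cells in all 9 pairs. The mean level was 1.88 % in blood cells, 48.4 % in uterus, 62.4 % in ileum, 62.8 % in testis, 69.9 % in skeletal muscle, 70.4 % in lactating mammary gland, 78.4 % in mammary parenchyma, 79.2 % in frontal cortex, 83.3 % in abomasum and 90.1 % in rumen. Every site had 0 to 7.89 % in blood cells on 38 to 59 reads. From the first to the last site the level went from 88.5 to 45.0 % in ileum, the largest change, and from 60.0 to 81.8 % in mammary parenchyma. It was 60.0 and 60.9 % in testis and 87.5 and 84.8 % in rumen. A CCGG within the run lies between these sites, so they belong to different MspI fragments. On the plus strand of ileum the level stepped there, from 76.9 % on 26 reads at 44484523 bp to 55.4 % on 83 reads at 44484528 bp.

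Blood cells were highly methylated at the covered CGs on either side of this run. The next tested CGs lay 19901 bp before and 79264 bp behind it, and blood cells had 97.4 % and 96.6 % there against means of 91.8 % and 92.5 % in the others. At a CHH cytosine inside the run, at 44484526 bp on the plus strand, the deposited level was 60.8 % in blood cells and between 54.8 % and 76.9 % in the other tissues. Of its 97 reads in blood cells 59 were methylated, and the CGs before and behind it on that strand had 38 and 59 reads. The position lies beside an internal CCGG where the reads of adjoining fragments meet, so its level may not be a methylation level. The 1 Mb window that starts at 44000001 bp held 106 tested sites, 25 called lower and 2 called higher, and the sites outside the runs were higher in blood cells by 6.80 points on average.

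**Figure D5:**
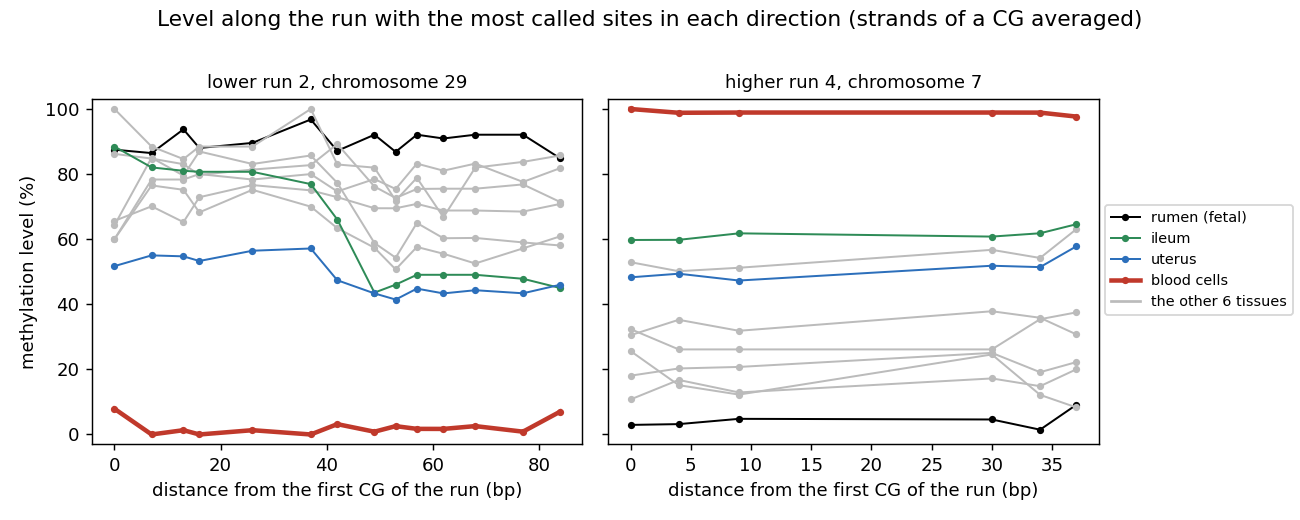
Methylation level (%, strands of a CG averaged) against the distance from the first CG (bp) along lower run 2 on chromosome 29 and higher run 4 on chromosome 7. Blood cells, in red, stay below 10 % in the left panel and above 95 % in the right panel, with uterus (blue) and, from the middle of the run, ileum (green) closest on the left and ileum closest on the right.

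Lower run 1 on chromosome 16 had the largest mean gap, 46.4 points over 4 CGs. Its mean level was 3.57 % in blood cells, 51.1 % in ileum, 52.2 % in uterus and between 70.7 % and 90.9 % in the other 7 tissues. It rested on a median of 28 reads per site in blood cells and on as few as 8 in another tissue, and 2 of its 4 sites were called. Lower run 4 on chromosome 18 was called at all 6 sites. Its mean level was 2.85 % in blood cells and 43.9 % in ileum, and it was between 65.3 % in uterus and 87.0 % in rumen in the others.

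Lower run 3 on chromosome 11 was graded. Over 7 CGs the level in blood cells fell from 46.2 % at the first CG to 2.56 % at 101128532 bp on the plus strand, and 6 of the 12 sites were called. The other tissues had means between 71.4 % in uterus and 95.0 % in frontal cortex. At the last CG they too were lower, from 38.6 % in mammary parenchyma to 85.7 % in testis, with 6.67 % in blood cells. Lower run 5 on chromosome 17 had 17.9 % in blood cells, 55.6 % in uterus and 71.3 to 86.5 % in the others, and 2 of its 11 sites were called. The windows of 1 Mb with lower runs 3 and 4, which start at 101000001 bp on chromosome 11 and at 62000001 bp on chromosome 18, each held 6 lower and 0 higher calls, among 85 and 199 tested sites.

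The remaining named lower runs had mean gaps of at most 28.0 points. Lower run 8 on chromosome 11 had 9.94 % in blood cells, 39.4 % in ileum, 49.8 % in uterus and 50.3 % in mammary parenchyma, with at least 62.1 % in the others and 2 called sites. Lower run 7, near the end of chromosome 6, had 1.75 % in blood cells and was also lower in other tissues, with 29.8 % in lactating mammary gland and 36.4 % in ileum and 0 called sites. In lower runs 6, 9 and 10 blood cells kept intermediate levels of 38.3 %, 65.3 % and 41.7 %. The others had at least 72.5 %, 93.6 % and 68.4 % there, and no site was called in all 9 pairs. In these 3 runs the difference was thus partial in blood cells and not detectable in every pair at this depth.

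Higher run 4 on chromosome 7 showed the opposite pattern over a shorter tested stretch. All 11 sites of its 6 tested CGs were called higher in all 9 pairs. Its mean level was 99.0 % in blood cells, 61.1 % in ileum, 54.0 % in testis, 50.4 % in uterus, 33.9 % in skeletal muscle, 29.99 % in abomasum, 20.8 % in lactating mammary gland, 17.1 % in frontal cortex, 15.0 % in mammary parenchyma and 3.92 % in rumen. Single sites had 97.7 to 100 % in blood cells on 43 to 46 reads. The other tissues thus ranged from nearly unmethylated to intermediate, and the mean gap between blood cells and the nearest tissue was 37.5 points.

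A second higher run lay 52364 bp before it. In this run, the level was 94.6 % in blood cells, 64.2 % in ileum, 59.9 % in lactating mammary gland and between 11.4 % in rumen and 44.7 % in uterus in the others, and 3 of its 14 sites were called. The 1 Mb window that starts at 45000001 bp on chromosome 7 held 14 higher calls among 153 tested sites, all of them in these 2 runs. Outside the runs its sites were higher in blood cells by 1.56 points on average.

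The other named higher runs had few or no tissues at high levels. Higher run 1 on chromosome 11 had 74.7 % in blood cells, while uterus had 28.7 %, skeletal muscle 24.8 %, ileum 24.1 %, testis 20.2 %, abomasum 17.5 %, lactating mammary gland 11.8 %, mammary parenchyma 11.3 %, rumen 9.52 % and frontal cortex 4.90 %. Within it the level in blood cells ranged from 51.5 to 100 % over 3 CGs. Higher run 2 on chromosome 12 had 85.9 % in blood cells, 43.6 % in ileum, 41.3 % in uterus and at most 16.3 % elsewhere. In higher run 5 on chromosome 5 blood cells had 93.9 %, ileum 57.1 %, uterus 55.0 % and skeletal muscle 40.0 %, and frontal cortex had 0 %.

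Higher run 3 on chromosome 25 had a different order of tissues. Blood cells had 91.3 %, testis 48.6 %, abomasum 38.3 % and ileum 31.4 %, and the mammary gland was nearly unmethylated, with 3.14 % in parenchyma and 3.62 % during lactation. Without testis its mean gap to the nearest tissue grew from 39.4 to 49.7 points.

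Uterus and ileum were the tissues most like blood cells at these positions. One of them was the nearest tissue at 73 of the 87 called sites and in 33 of the 44 runs, and neither was the farthest in any run. Called sites of a run share reads, so the 73 are not independent. Over all 10152 sites where blood cells were highest, uterus was nearest at 22.6 % and ileum at 21.2 %. The shares were 18.9 % and 17.0 % at the 677 sites where blood cells were lowest. Rumen, the fetal tissue, was the farthest in 17 runs and the nearest in 0. Another tissue was nearest in the remaining 11 runs, and in lower run 3 ileum, at 91.9 %, was above 6 of the others. The share of blood cells in each tissue was not measured, so its part in these levels was not tested. Without both tissues 55 lower and 128 higher sites were called in all 7 remaining pairs. Such counts can only stay equal or rise when tissues are left out.

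Of 6 pairs of runs within 200 kb on a chromosome, 4 joined runs of the same direction and 2 joined a higher with a lower run. On chromosome 29 a higher run ended 45499 bp before lower run 2, and blood cells had 98.7 % in it, ileum 72.2 %, rumen 65.8 %, uterus 65.6 % and frontal cortex 13.0 %. On chromosome 17 a higher run, with 46.7 % in blood cells and at most 22.5 % elsewhere, was followed after 38757 bp by a lower run with 52.9 % in blood cells and at least 79.2 % elsewhere. On chromosome 19 a pair of higher runs was separated by 16 bp. The first had 60.2 % in blood cells and at most 28.1 % elsewhere, and the second had 40.5 % and at most 18.5 %.

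Stretches just outside the limit of 20 points looked similar. The lower run with the smallest mean gap had 20.4 points, while the lower stretch closest to the limit from outside, on chromosome 22, had 19.2 points, with 24.2 % in blood cells and 50.6 to 85.3 % elsewhere. The higher run with the smallest mean gap had 20.6 points. The closest higher stretch outside, on chromosome 4, had 19.7 points with 96.6 % in blood cells. On chromosome 28, 16 sites within 44 bp had a mean gap of 19.0 points and 2 of them were called lower. The level there was 10.3 % in blood cells, 29.3 % in testis, 47.5 % in rumen, 52.9 % in ileum and 56.4 to 92.6 % in the other 6 tissues.

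Among the 45 lower and 42 higher called sites, 0 lower and 3 higher sites had at least 20 reads in every tissue. The first, at 30455 bp on the plus strand of chromosome 4, had only methylated reads in blood cells, 124 of 124 (100 %, Wilson 95 % interval 97.0 to 100 %). It was intermediate in the other tissues, from 50.4 % in testis to 72.4 % in ileum. The second, at 69357655 bp on the minus strand of chromosome 4, had 100 % on 24 reads in blood cells (86.2 to 100 %) and 0 to 54.8 % in the others. The third, at 51542661 bp on the minus strand of chromosome 19, had 61.2 % on 49 reads (47.2 to 73.6 %) against 1.82 to 17.6 %.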

How the data were processed

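RRBS libraries of 10 bovine tissues, 1 per tissue, were analysed. The authors aligned the reads to UMD 3.1 with a pipeline based on SOAPaligner, and kept cytosines covered by 8 reads or more. They deposited the count of reads per cytosine and strand, not normalized, and its methylation level as a fraction of these reads. A further number of reads, a p-value and an FDR per cytosine were deposited and not used here. Methylated reads were the level times the count. Groups were taken from the tissue labels.

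Sites, lists and rules were chosen with earlier results of these data known. Each pair of libraries was compared by Fisher's exact test with Benjamini-Hochberg adjustment within the pair (below 0.01, at least 25 points). Level shares were compared by exact permutation of 1 tissue against 9. The regions named were the 10 lower and 5 higher runs with the largest mean gap, up to 5 called sites per direction with at least 20 reads in every tissue, and the 3 windows of 1 Mb with the most called sites, extended to 4 by a tie between windows on chromosomes 11 and 18 with 6 lower sites each. Other runs in the text were chosen for their position after their values were seen. Depth at the common sites had medians of 12 to 50 reads, so levels of shallow sites move in coarse steps. The 1780 common CG sites outside the autosomes, expression and gene annotation were not analysed here. Alternatives were read minimums, thinned reads (seed 1), other limits for calls, classes and runs, summed strands, weighting and tissues left out. Software was SciPy 1.17.1 and NumPy 2.4.6 on Python 3.11.15, with Numba 0.67.0, pandas 2.3.3 and matplotlib 3.10.9.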

Additional observations from a re-analysis of the deposited data

How the results depend on the processing

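No paired analysis was possible because each tissue had 1 library and the labels gave no shared replicate numbers. The differences in mean level and in the shares of low and high sites kept their direction under every alternative run. The difference in the polarised share, 3.71 points, was -8.35 points when only levels of exactly 0 and 100 % counted (exact permutation test, p = 0.4), because fewer sites were at 0 % in blood cells. It shrank to 1.49 points with limits of 10 and 90 % (exact permutation test, p = 0.6). Under the other alternatives it kept its direction. Counts of sites called in all 9 pairs, 45 lower and 42 higher, changed with depth and with the adjustment. They were 0 and 5 with at least 20 reads, 0 and 1 with thinned reads, 29 and 18 with 40 points and 14 and 1 with Bonferroni adjustment. Of the 87 sites, 1 was called with thinned reads, where a median of 12 reads per tissue limits the test. Without ileum 79 sites were higher, and counts of called sites can only stay equal or rise when tissues alone are left out. The 15 lower and 29 higher runs became 9 and 16 with at least 10 reads, 0 and 2 with at least 20 reads, 28 and 105 with a mean gap of 10 points and 5 and 9 with one of 30 points, and 44 were higher without ileum. With thinned reads there were 13 and 34 runs. After the data were seen, 3 alternatives were added. Without uterus and ileum 128 sites and 64 runs were higher. Without abomasum and with reads thinned to the other 9 tissues, 9 lower and 6 higher sites were called. Without uterus no count moved by over 1.5 times. The gaps of the named runs kept their direction in all 119 recalculations, with sizes from 11.0 to 67.8 points. Leaving out tissues alone cannot narrow a gap to the nearest tissue, so those recalculations could not reverse it. Runs with no site left gave no value. This was so for every named run with at least 20 reads and for lower run 1 with at least 10 reads.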
